A study of Mus musculus with 2 samples.

Results

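MMERVK10C and RLTR10 elements are mouse class II endogenous retroviruses (ERVs), the remains of retroviruses that entered the germline. The deposited table of transposable element families held 9 families whose name starts with MMERVK10C or RLTR10, of 634 in all, and membership used the name alone, with no filter on values. All 9 carry the superfamily label ERVK, the label of class II ERVs, which 150 families of the table share. Of the 9 families, 2 are internal parts, MMERVK10C-int and RLTR10-int, and 7 are long terminal repeats (LTRs), RLTR10, RLTR10A, RLTR10B, RLTR10B2, RLTR10C, RLTR10D and RLTR10E. Together they count 14729 annotated copies, from 473 for RLTR10B to 3318 for MMERVK10C-int. No other family of the table has a name starting with MMERVK.

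The libraries came from mouse embryonic stem (ES) cells of a mixed B6/129 background, whose genotype was Daxx fl/fl; RosaCreERT: loxP sites flank both Daxx alleles, and Cre recombinase becomes active on exposure to tamoxifen. The control culture received DMSO, the solvent. To delete Daxx, the other culture was exposed for 48 h to 1 µM 4-hydroxytamoxifen (4-OHT), and 3 days of recovery followed. Both cultures carried the same alleles, grew on mitomycin C-inactivated feeder cells with LIF, and gave 1 library each, so an effect of 4-OHT or of active Cre cannot be told apart from loss of Daxx. With 1 library per condition no value has a replicate error, no test was possible, and every difference below compares these 2 libraries. The table holds families and none of 9 genes sought (Daxx, 4 ES cell markers and 4 fibroblast markers), so the deletion, the cell type and the share of feeder RNA were not analysed here.

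An intact ERV has an internal part, which holds the gag, pro and pol genes for capsid, protease and reverse transcriptase, between a pair of LTRs. The LTR carries the promoter and the polyadenylation signal, and many LTRs remain alone in the genome after recombination has removed the internal part. In mouse ES cells, MMERVK10C is kept silent by the corepressor Trim28 (KAP1) and the histone H3 lysine 9 methyltransferase Setdb1. Daxx is a chaperone of the histone variant H3.3, which it deposits together with the chromatin remodeller Atrx. RNA-seq of the cells with and without Daxx asks whether such elements become active when the chaperone is lost.

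In the Daxx-deleted library, 8 of the 9 families had a higher value than in the control, and RLTR10E had a lower one. A higher value was also found in 72.9% of all families and in 80.7% of class II families, so the share that was higher was near the background. In size of change, 7 of the 9 exceeded the median of all families, where 317 of the 634 families and 96 of the 150 class II families did. The median log2 change of the 9 families was 0.83, against 0.18 for all 634 families and 0.24 for the 150 class II families. Counted with a pseudocount of 0.001 RPKM, 3 of the 9 families were at least 2-fold higher, where 9.31% of all families and 5.33% of class II families were. After the median of all families was subtracted the count was still 3 of 9, against 7.1% and 4.67%. At 1.5-fold the count was 6 of 9, against 18.9% of all families and 20.7% of class II families. No member was 2-fold lower, where 2.05% of all families and 0.667% of class II families were. Reads that map to many places were kept, and related families can therefore hold the same reads, so the 9 values are not independent of each other.

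The levels are given in RPKM, reads per unit of length, relative to the exonic reads of protein-coding genes. Each value describes a whole family, not a locus. Whether it is scaled by the total length of the family's copies or is a mean over copies is not stated in the sources read, so levels, sums and ratios between families hold on the deposited scale only. The internal parts were higher in the Daxx-deleted library. MMERVK10C-int, the coding part of MMERVK10C, went from 0.0348 RPKM with DMSO to 0.123 RPKM after Daxx deletion. The ratio of these values was 3.54 and the log2 change 1.80. Its level was the 43rd highest of the 150 class II families in the control and the 15th highest in the Daxx-deleted library. Its gain of 0.0886 RPKM was the 3rd largest among class II families and the 18th largest in the whole table. RLTR10-int, the internal part named after the RLTR10 LTR, measured 0.0130 RPKM with DMSO and 0.0312 RPKM after deletion. The ratio was 2.40 and the log2 change 1.20. The gap between the internal parts was wider after deletion: the level of MMERVK10C-int was 2.68 times that of RLTR10-int in the control and 3.96 times in the Daxx-deleted library.

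RLTR10C is the LTR that flanks MMERVK10C. Its level went from 0.0167 RPKM with DMSO to 0.0487 RPKM after deletion, a ratio of 2.92 and a log2 change of 1.49. It had the largest log2 change of the 7 LTRs, and among class II families it followed directly after MMERVK10C-int, at rank 4 against rank 3. Its level moved from rank 92 to rank 37 of the 150 class II families. The internal part stood above its LTR in both libraries, by 2.09 times in the control and 2.53 times in the Daxx-deleted library, so the log2 change of MMERVK10C-int was larger by 0.31. The RLTR10 pair was ordered in the same way: RLTR10-int had 1.14 times the level of RLTR10 in the control and 1.48 times in the Daxx-deleted library, and the log2 changes differed by 0.37. How a read that spans or matches both parts was assigned is not given in the sources used here.

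The LTR RLTR10, with 2884 copies the most numerous LTR of the group, measured 0.0114 RPKM with DMSO and 0.0211 RPKM after deletion. Its ratio was 1.84. RLTR10D went from 0.0203 to 0.0346 RPKM, a ratio of 1.71. Both were therefore higher by over 1.5-fold and by under 2-fold, with log2 changes of 0.83 and 0.74.

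RLTR10B2 had the lowest level of the group in both libraries, 0.00358 RPKM with DMSO and 0.00812 RPKM after deletion. The quotient of these values was 2.27, and with the pseudocount of 0.001 RPKM the log2 change was 0.99, just under 2-fold. Its level lay close to the pseudocount, so whether it counts as 2-fold higher rests on that choice. By quotients alone, 4 of the 9 families were at least 2-fold higher, where 6.78% of all families and 6% of class II families were. Families with a control value of 0 have no quotient and are not counted as higher there. RLTR10B, whose LTRs are known to act as enhancers of germline genes in mouse spermatocytes, went from 0.00750 to 0.00837 RPKM. Its ratio of 1.12 lay far below that of RLTR10B2, although their levels in the Daxx-deleted library differed little. RLTR10A went from 0.0216 to 0.0260 RPKM, a ratio of 1.20. With the median family's log2 change subtracted, RLTR10A stood at 0.08 and RLTR10B at -0.04.

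RLTR10E was the exception. It went from 0.187 RPKM with DMSO to 0.166 RPKM after deletion, a ratio of 0.885 and a log2 change of -0.17, or -0.35 relative to the median family. Its level was the highest of the group in both libraries, although it has 685 copies, fewer than any other member except RLTR10B. It ranked 6th in level among the 150 class II families in the control and 10th in the Daxx-deleted library. Its loss of 0.0215 RPKM placed it at rank 147 of 150 class II families ordered from the largest gain to the largest loss.

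**Figure D1:**
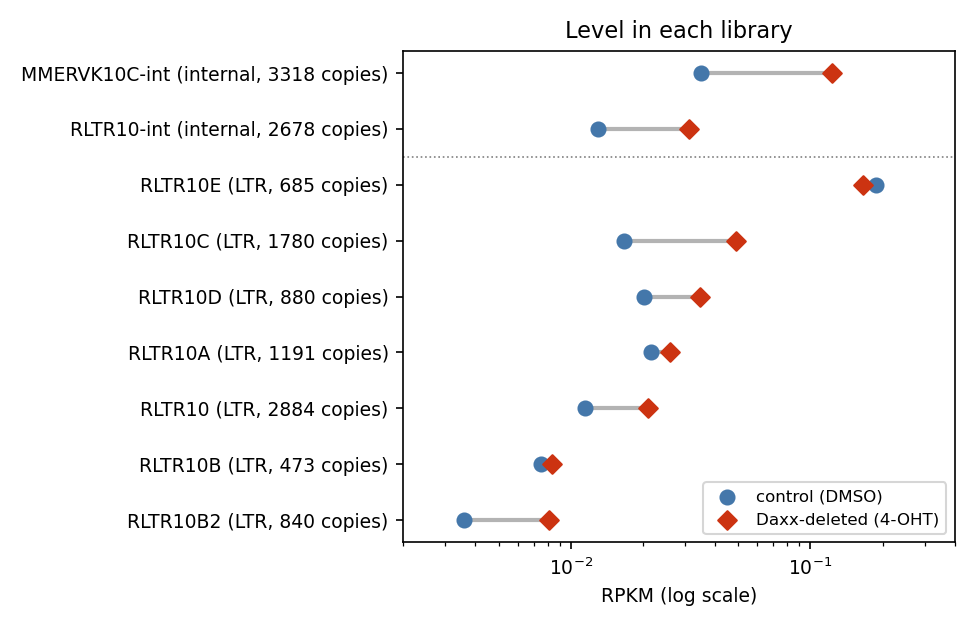
Level of each family in RPKM on a log axis, with the control library as circles, the Daxx-deleted library as diamonds and a grey line joining them; internal parts are above the dotted line and LTRs below it, each with its number of annotated copies. The longest lines are those of MMERVK10C-int (0.0348 to 0.123 RPKM) and RLTR10C (0.0167 to 0.0487 RPKM), and RLTR10E alone has its diamond to the left of its circle.

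In the control the order of levels from the highest was RLTR10E, MMERVK10C-int, RLTR10A, RLTR10D, RLTR10C, RLTR10-int, RLTR10, RLTR10B and RLTR10B2. In the Daxx-deleted library it was RLTR10E, MMERVK10C-int, RLTR10C, RLTR10D, RLTR10-int, RLTR10A, RLTR10, RLTR10B and RLTR10B2. The first 2 and the last 3 places were filled by the same families in both libraries. RLTR10C went from the 5th place to the 3rd and RLTR10A from the 3rd to the 6th. Without replicates, no pair of neighbours in either order can be said to differ beyond its spread. The span from the lowest to the highest family was 52.3-fold in the control and 20.4-fold in the Daxx-deleted library. This narrowing rests on RLTR10E: without it the span went the other way, from 9.74-fold to 15.2-fold.

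The summed level of the 9 families went from 0.316 to 0.467 RPKM, a ratio of 1.48, against 1.11 for the sum over all 634 families and 1.07 for the other class II families. The class II list closest in size of change, given below, had a larger ratio, 2.17. The sum of the other class II families rests in large part on a few families, MMETn-int (2.39 to 2.40 RPKM) and RLTR19-int (1.32 to 0.988 RPKM) among them. Its ratio without such families was not calculated. RLTR10E made up 59.2% of the sum of the 9 families in the control and 35.4% in the Daxx-deleted library. MMERVK10C-int made up 11.03% and 26.4%, and RLTR10C 5.29% and 10.4%. The sum thus rests mostly on these few families. Without RLTR10E the sum went from 0.129 to 0.301 RPKM, a ratio of 2.34. Without MMERVK10C-int it went from 0.281 to 0.344 RPKM, a ratio of 1.22. The internal parts alone went from 0.0478 to 0.155 RPKM, a ratio of 3.23, and the 7 LTRs from 0.268 to 0.312 RPKM, a ratio of 1.17.

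**Figure D2:**
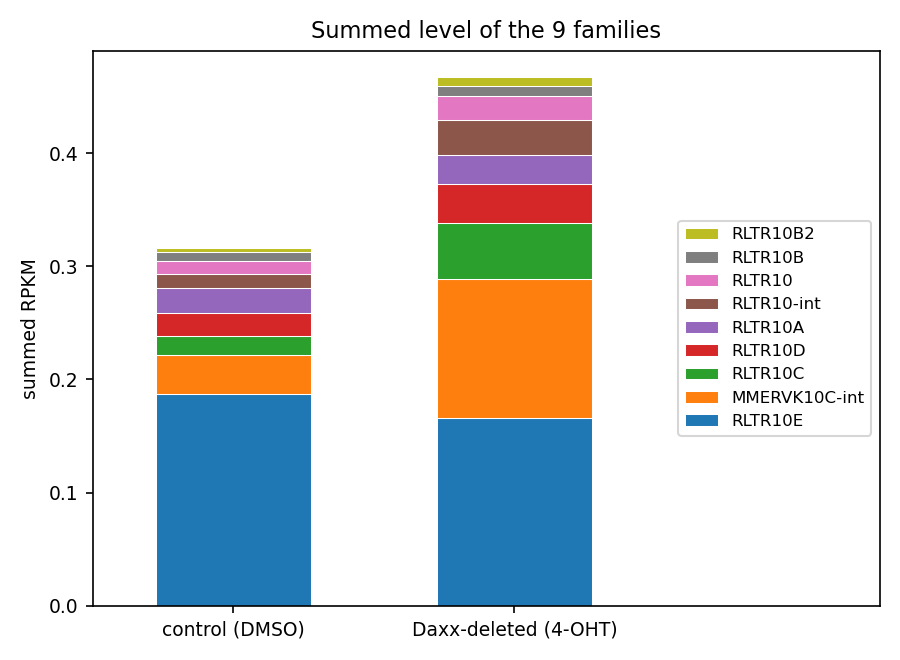
Summed RPKM of the 9 families in each library, stacked by family, with RLTR10E at the base of each bar. The control bar reaches 0.316 RPKM and the Daxx-deleted bar 0.467 RPKM, and the segment of MMERVK10C-int widens from 0.0348 to 0.123 RPKM while that of RLTR10E narrows from 0.187 to 0.166 RPKM.

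The median log2 change was 1.498 for the 2 internal parts and 0.74 for the 7 LTRs, although the LTR RLTR10C, at 1.49, lay above the internal part RLTR10-int, at 1.20. In the other class II families the median was 0.41 for the 28 other families whose name ends in -int and 0.21 for the 113 others. Both sets pool unlike families, and the internal parts of the list closest in size of change are given apart below. The ratios of summed levels of the 28 and the 113 were ordered the other way. The sum of the 28 went from 5.81 to 5.72 RPKM, a ratio of 0.984, and the sum of the 113 from 3.75 to 4.49 RPKM, a ratio of 1.20. The sum of the 28 rests mostly on a few families. MMETn-int went from 2.39 to 2.40 RPKM, RLTR19-int from 1.32 to 0.988, ETnERV2-int from 0.664 to 0.546 and ETnERV-int from 0.528 to 0.463. The order of the ratios without these families was not calculated.

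Members with more annotated copies tended to have larger log2 changes. Spearman's rho between copies and log2 change was 0.77 over the 9 families, and 0.64 over the 7 LTRs. Over the 144 class II families that were not at 0 in both libraries the same rho was 0.04. The members share reads and both libraries, so these coefficients describe the table and carry no test. Between the control level and the log2 change rho was -0.10 over the 9 families, -0.50 over the 7 LTRs and -0.44 over the 144 class II families. The control level is also the denominator of the log2 change, which by itself favours a negative rho, so nothing is concluded from these values. Over the 8 members without RLTR10E the rho with the control level changed sign, to 0.29, while the rho with copies was 0.69. Over the 6 LTRs without RLTR10E the rho with the control level was -0.20 and the rho with copies was lower, at 0.49.

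**Figure D3:**
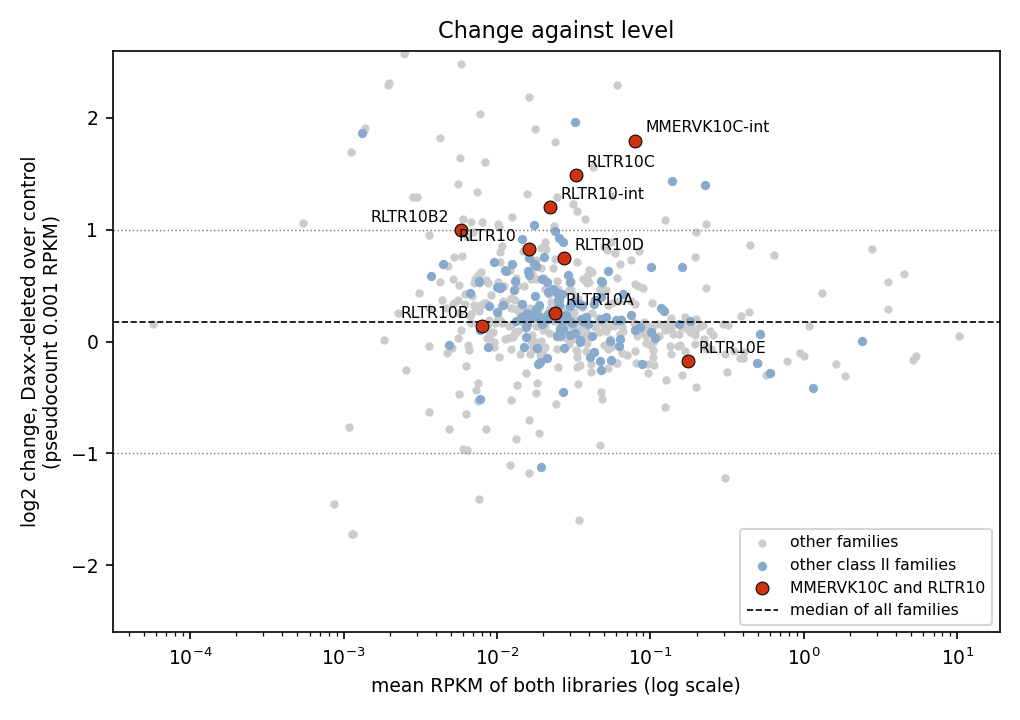
Log2 change (Daxx-deleted over control, pseudocount 0.001 RPKM) against mean RPKM on a log axis, with the 9 families named in red, other class II families in blue, all others in grey, a dashed line at the median of all families (0.18) and dotted lines at 2-fold; 17 families beyond 2.6 on the log2 scale and 33 at 0 in both libraries are not drawn. MMERVK10C-int, RLTR10C and RLTR10-int lie above the upper dotted line, RLTR10B2 just under it at 0.99, and RLTR10E below 0.

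Of the other class II lists compared, the closest in size of change was IAP, the intracisternal A-particle, another ERV silenced in ES cells by Trim28 and Setdb1. Its 16 families had a median log2 change of 0.69, and 4 of the 16 were at least 2-fold higher. Their summed level went from 0.390 to 0.847 RPKM, a ratio of 2.17, above the 1.48 of the 9 MMERVK10C and RLTR10 families. The 6 IAP internal parts (names ending in -int or _I, IAPLTR4_I among them) had a median of 1.16 and a ratio of summed levels of 2.55. For the 2 internal parts of MMERVK10C and RLTR10 these were 1.498 and 3.23, so large gains of internal parts were not particular to the group. The IAP median of 1.16 depends in part on the pseudocount, through the 1.86 of IAPLTR4_I. The other IAP internal parts had log2 changes of 0.45, 0.70, 0.89, 1.44 and 1.96. Since the name IAPLTR4_I does not end in -int, it is counted among the 113 families above. The 5 ETn and MusD families, early transposons and their autonomous relatives, had a median of 0.01 and none at 2-fold. All 141 class II families outside the group had a median of 0.22. Of the 8 class II families at least 2-fold higher, 3 were MMERVK10C or RLTR10 families, 4 were IAP families and 1 was RMER17A-int. One of those IAP families, IAPLTR4_I, was listed at 0 in the control, so its change has no quotient and depends on the pseudocount. The differences between these groups were not tested, since each rests on the same pair of libraries.

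**Figure D4:**
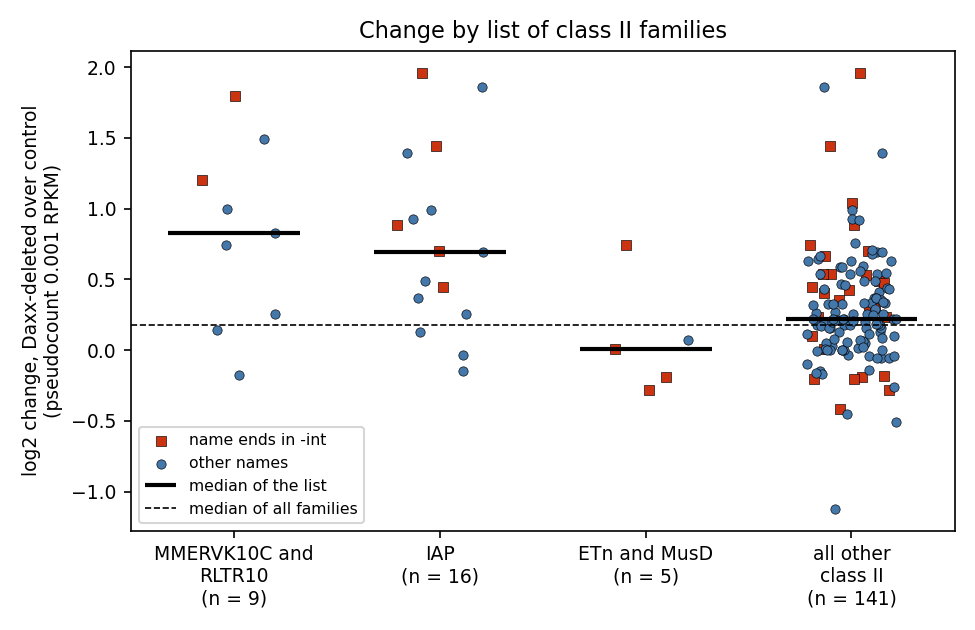
Log2 change (Daxx-deleted over control, pseudocount 0.001 RPKM) of each class II family, by list, with internal parts (names ending in -int) as squares, other names as circles, a bar at each list's median and a dashed line at the median of all families (0.18); the list at the right holds the IAP, ETn and MusD families too. The medians are 0.83 for MMERVK10C and RLTR10, 0.69 for IAP, 0.01 for ETn and MusD and 0.22 for the 141 other class II families.

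The families nearest to MMERVK10C-int in level in both libraries, by the distance between log2 values with the pseudocount, were MER110A, MMVL30-int, MLT1H-int, LTR79 and LTR58, and none of these 5 is class II. The nearest, MER110A, with 192 copies, went from 0.0321 to 0.0805 RPKM, a ratio of 2.50. MMVL30-int, the internal part of the VL30 element, went from 0.0431 to 0.0753 RPKM. Their distances ran from 0.62 for MER110A to 0.79 for LTR58, so none had nearly the same levels. All 5 had a smaller log2 change than MMERVK10C-int, from 0.69 for LTR58, which has 12 copies, to 1.30 for MER110A. That holds for these 5 and depends on where the list is cut. MERVL-int, outside the list and not class II, went from 0.0198 to 0.101 RPKM, a larger log2 change than that of MMERVK10C-int. The likeness is measured over 2 libraries only.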

How the data were processed

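TruSeq RNA libraries were made from total RNA of 2 cultures, per the labels' protocols. The info sheet, read with the file headers, names JAGuaR 2.1 as the aligner, a wrapper of BWA that also uses exon junctions of Ensembl 67, with mm9 as the genome. The submitters' processing notes give BWA as 0.7.10. The deposited RPKM values were normalized by the authors, per the file headers, to exonic reads of protein-coding genes, leaving aside mitochondrial and ribosomal proteins and the top 0.5% of exons, with multi-mapped reads kept. A family's value therefore also moves with that exonic total. Nothing read here states how reads were assigned to families, the repeat annotation or the use of strand.

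The DMSO sample was matched to the control column and the 4-OHT sample to the other, with 0 columns of other samples. The log2 change is log2((Daxx-deleted + 0.001) / (control + 0.001)) in RPKM, which understates the change of low families; ratios are quotients of deposited values. Library totals are not given. The 60 families with the lowest product of mean RPKM and copies, above 0 in both libraries, stood in for families with few reads. That product leaves out element length, and the scaling of RPKM is unknown, so few reads are not shown. In 7 of the 60, at the best common scaling, the ratio of values lay within 0.1% of a ratio of whole numbers up to 10 (median over scalings 2). Depth is therefore treated as unknown and no interval or detection limit is given. Lists, pseudocount and members were chosen with earlier results of these data known. Every member is named, with the 5 nearest non-members; RMER17A-int and IAPLTR4_I were named after their values were seen. The alternatives were other pseudocounts, filters on level and copies, other fold thresholds, subtraction of the median, and sets of members. The log2 formula was also run on control values with known fold changes put on them without noise. It returns these by construction, so that run checks the code alone and says nothing of the calls. The software was matplotlib 3.10.9, pandas 2.3.3 and numpy 2.4.6 under Python 3.11.15.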

Additional observations from a re-analysis of the deposited data

How the results depend on the processing

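With 1 library per condition a log2 value is counted as moved here when it differed by over 0.25, and a count when it differed by over 1.5 times. The 3 families at least 2-fold higher became 4 with a pseudocount of 0.0001 RPKM, 2 with 0.01 RPKM and 0 with 0.1 RPKM, a value above most of the levels themselves. They became 6 at 1.5-fold and 1 at 3-fold. The shares of all families under these other pseudocounts and at 3-fold were not counted, so these counts have no background beside them. The count of 0 families 2-fold lower was the same under every alternative run for it. The median log2 change of 0.83 was 0.53 with a pseudocount of 0.01 RPKM, 0.12 with 0.1 RPKM, 0.65 after subtraction of the median of all families and 1.498 over the internal parts alone. A mean of at least 0.01 RPKM, which RLTR10B and RLTR10B2 did not reach, left 7 families with the same median and count, and at least 100 copies left all 9. With both filters 3 of 7 members were at least 2-fold higher, where 5.28% of the 436 families and 5.43% of the 129 class II families that passed were. The log2 ratio of summed RPKM, 0.56, was 0.42 relative to all families. After the values were seen, sets without some members were added: this log2 ratio was 1.23 without RLTR10E, 0.29 without MMERVK10C-int and 0.92 without both. Of the single families' log2 changes under other pseudocounts and subtraction, 26 stayed within 0.25 and 10 moved, all 10 with a pseudocount of 0.01 or 0.1 RPKM. No paired analysis was possible because there is a single library of either kind.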
